A study of Salmo salar with 8 samples.

Results

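MRC1, CD209 and ASGR1 are the macrophage mannose receptor, the receptor known in mammals as DC-SIGN, and a subunit of the asialoglycoprotein receptor. They were followed in adherent head kidney leukocytes (HKLs) of Atlantic salmon between Day 1 and Day 5 of culture. Blood cells of teleost fish form in the head kidney, and adherent HKLs are the leukocytes from it that attach to a culture dish. Day 1 HKLs were sampled 24 h and Day 5 HKLs 120 h after seeding, from the same 4 fish, so that each day had 4 samples. All samples were primary cultures kept in L-15 medium with fetal bovine serum and antibiotics, had been isolated on a Percoll gradient and received no stimulus. The labels state a rinse at 24 h, right before Day 1 HKLs were sampled, and further rinses every 48 h, which concern only the cells kept on to Day 5; the age of the fish was not given in the sources used here. The cultures were not sorted, so each sample held whatever leukocytes and other blood cells remained attached. Each array held RNA of 1 sample in Cy5 and, as common reference, the pooled samples in Cy3. Unless another scale is named, a value below is a log2 ratio, sample over reference.

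The members were all 10 probes that the study's list of differentially expressed probes gives the symbol MRC1 (5 probes), CD209 (3 probes) or ASGR1 (2 probes), out of 43689 probes on the array. The members were thus chosen by the log2 ratios of these same 8 arrays, since the list came from a paired test of Day 5 against Day 1 on them (significance analysis of microarrays, SAM), and a difference between the days was the condition for being a member. The changes between the days are therefore descriptions and carry no p-value here. When SAM was recomputed on the authors' processed values, it called 2121 of 18108 probes (11.7%), those with a statistic of at least 1.59 or at most -1.62, and the members lay between 1.88 (ASGR1 C171R027) and 4.04 (MRC1 C163R118) in absolute value. Probes just outside these limits had no gene name here. All 10 members passed the filter on dim and flagged spots.

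C-type lectins are proteins with a carbohydrate recognition domain that in most members holds the sugar through a calcium ion. MRC1 is a large endocytic receptor of macrophages and of some endothelial cells in mammals, with several such domains in a row, and takes up glycoproteins and microbes that expose mannose, fucose or N-acetylglucosamine. CD209 has 1 lectin domain at the end of a stalk, is known from dendritic cells and some macrophages of humans, and binds high-mannose and fucosylated sugars. ASGR1 is best known from mammalian hepatocytes, where it clears glycoproteins that have lost their terminal sialic acid and expose galactose. Which salmon protein each of these probes reports rests on the study's annotation by sequence similarity.

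The sequences behind the MRC1 probes are shown first because they bear on which of the 5 probes share sequence. They cannot decide how many separate transcripts the probes stand for, since the contigs were held only in part. The 60mer probes themselves were not used here; the study's annotation gives the contig (assembled transcript sequence) each probe was designed on, of which the first 399 bases were held, and where in the contig the 60mer lies is not known. The contigs of C038R129 and C054R116 were identical over 399 of 399 bases, and both probes were annotated to the same salmon transcript, whose RefSeq gene is LOC106590133. These 2 probes are therefore not independent measurements. The last 80 of the held bases of the C001R135 contig matched the first 80 bases of the C230R105 contig with 1 difference, A48T, in which the base of C230R105 is given first and positions are counted from 1 at the start of its contig. The overlapping stretches, from 5′ to 3′ with the differing base in capitals, read
MRC1 C230R105: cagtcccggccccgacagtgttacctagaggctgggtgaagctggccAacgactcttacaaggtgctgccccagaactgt
MRC1 C001R135: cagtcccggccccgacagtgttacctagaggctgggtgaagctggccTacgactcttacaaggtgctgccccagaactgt

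The shared contig and that of C163R118 were far less alike: their best local alignment had 23 matching bases of 27. The 150 bases that end with this stretch are given for both, with the stretch in capitals, to show the sequence around it, in which they differ.
MRC1 C054R116 and C038R129: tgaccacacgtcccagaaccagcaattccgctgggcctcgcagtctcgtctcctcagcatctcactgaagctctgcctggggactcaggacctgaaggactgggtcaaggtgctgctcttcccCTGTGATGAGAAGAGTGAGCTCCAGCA
MRC1 C163R118: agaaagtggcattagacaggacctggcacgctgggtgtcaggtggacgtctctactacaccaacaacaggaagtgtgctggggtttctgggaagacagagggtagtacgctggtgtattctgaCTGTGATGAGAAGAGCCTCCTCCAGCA
Each of the 5 held MRC1 sequences had exactly 1 forward reading frame without a stop codon. By these sequences the 5 probes fall into 3 groups, namely C038R129 with C054R116, C001R135 with C230R105, and C163R118 alone. Different groups may still be parts of the same transcript, because the rest of each contig was not compared. Of the other members, CD209 C248R150 was annotated to a salmon transcript whose RefSeq gene is LOC106573404, and the annotation of the remaining 4 was not used here.

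All 10 members had a fitted change with a direction shared by every fish that was measured on both days, that is in 38 of 38 differences within fish, as the choice of the members favours. Of these probes, 7 were higher and 3 lower at Day 5. In limma's fit over 38695 probes, 784 probes (2.03%) passed an adjusted p of 0.05, 422 of them higher (1.09%) and 362 lower (0.936%) at Day 5. Among the tested probes named in the study's list 34.1% passed, 17.9% higher and 16.2% lower. Of the members 6 of 10 passed, 5 of them higher and 1 lower at Day 5, and nothing is read from this share since the same contrast chose the members. This number depended on single fish: it was 3 without Fish 2, 3 without Fish 3 and 2 without Fish 4. The samples of the 2 days did not overlap for 8 of the 10 members, against 11.3% of all tested probes and 72.3% of the tested probes in the study's list. In unsorted samples, fewer cells of a type and less RNA per cell cannot be told apart.

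**Figure D1:**
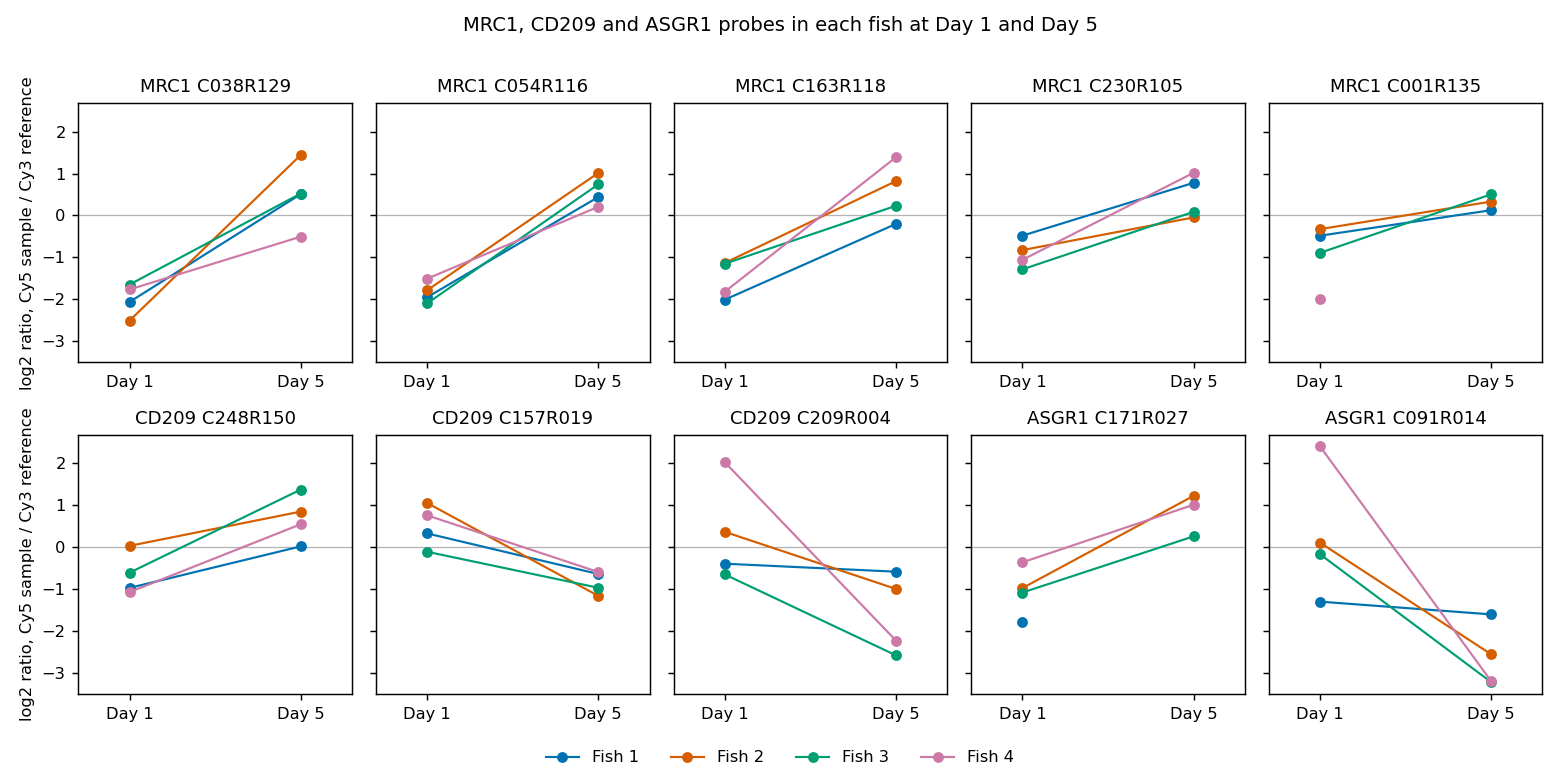
Log2 ratio of Cy5 sample over Cy3 reference (y axis) at Day 1 and Day 5 (x axis) for each of the 10 probes, 1 coloured line per fish; a point without a line is a sample whose partner spot was flagged. All 5 MRC1 panels run upwards, whereas CD209 and ASGR1 each have panels that run in both directions, and the steepest falls, in CD209 C209R004 and ASGR1 C091R014, are those of Fish 4.

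The 5 MRC1 probes were all higher at Day 5, with fitted changes between 0.89 and 2.49 on the log2 scale, and 4 of them passed the threshold. Their mean of 1.85 is a summary of probes and not of transcripts, since it counts the contig of C038R129 and C054R116 once for each and includes probes whose Day 1 spots were dim, as given below. Over the 4 MRC1 probes without a missing value, the mean log2 ratio at Day 1 was -1.62, -1.56, -1.54 and -1.54 in Fish 1 to Fish 4. At Day 5 it was 0.38, 0.81, 0.40 and 0.53. In this mean all 4 fish ended above the reference pool, with differences within fish of 2.00, 2.37, 1.94 and 2.06 (mean 2.09 ± 0.19 SD, n = 4). It leaves out C001R135, the MRC1 probe with the brightest Cy5 spots (7594 to 42766 intensity units, a flagged one included) and the smallest fitted change (0.89). It also counts the contig of C038R129 and C054R116 once for each and includes the probes with dim Day 1 spots. The fish with the largest change differed from probe to probe: it was Fish 2 in C038R129, Fish 3 in C054R116 and Fish 4 in C163R118 and C230R105.

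MRC1 C038R129 had log2 ratios of -2.06, -2.50, -1.64 and -1.76 in the Day 1 HKLs of Fish 1 to Fish 4, and of 0.51, 1.44, 0.52 and -0.50 in their Day 5 HKLs. Every Day 5 sample lay above every Day 1 sample, with Fish 2 lowest at Day 1 and highest at Day 5. The fitted change was 2.49 (SE 0.40), or 5.60-fold, from a mean of -1.99 ± 0.38 to one of 0.49 ± 0.80 (SD, n = 4 each). MRC1 C054R116, of the same contig, read -1.95, -1.78, -2.09 and -1.505 at Day 1 and 0.44, 1.02, 0.74 and 0.21 at Day 5. It varied least between samples of the same day among all members, with a within-day SD of 0.31, where the median of all tested probes was 0.46. Its fitted change was 2.43 (SE 0.32). Only 1 of its 4 Day 1 spots was above the negative control spots (their mean plus 2 SD) in Cy5, against 3 of 4 for C038R129, so the small spread and the change of C054R116 rest on dim Day 1 values. Both probes passed the threshold, and Fish 4 had the smallest change in each, of 1.26 and 1.71.

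MRC1 C163R118 was the one member whose Cy5 spots at Day 1 were at or under the level of the negative control spots on all 4 arrays, while all 4 Day 5 spots were above it. Its log2 ratios were -2.01, -1.13, -1.15 and -1.82 at Day 1 and -0.20, 0.82, 0.23 and 1.39 at Day 5. The days did not overlap, and Fish 4 had the largest change (3.20) and Fish 3 the smallest (1.38). The measured change was 2.08 (SE 0.35) and passed the threshold. Because the Day 1 level is only a limit, the size was also computed against a floor, as 3.72-fold higher at Day 5. This estimate sets the normalised Cy5 mean of Day 5, 9.95 on the log2 scale, against a Day 1 mean of 8.06. In the latter each array entered with the larger of its lowest value above the negative controls and the measured value. The measured Day 1 mean was 7.93. Since the floor is the lowest such value of any spot on an array, 3.72-fold is not a firm lower limit. The estimate leaves out the spread between fish and, without swapped dyes, is open to dye bias. In the authors' processed values, the same fit gave a change of 4.04 on the log2 scale, or 16.48-fold, where the measured change above was 2.08.

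MRC1 C230R105 read -0.48, -0.82, -1.28 and -1.06 at Day 1 and 0.78, -0.05, 0.09 and 1.02 at Day 5, a fitted change of 1.37 (SE 0.32) or 2.59-fold that passed the threshold. MRC1 C001R135, the probe with the overlapping contig, read -0.48, -0.32, -0.89 and -1.98 at Day 1 and 0.13, 0.33 and 0.50 in the Day 5 HKLs of Fish 1 to Fish 3, whereas the Day 5 spot of Fish 4 carried a quality flag and was left out. Both probes began nearer to the reference pool than the other MRC1 probes, at a mean of -0.91 and -0.92 at Day 1, and in neither did the days overlap. Of the Day 1 spots of C230R105, 2 of 4 were above the negative controls, and of C001R135 all 4. The fitted change of C001R135 was 0.89 (SE 0.37), over 3 fish, and did not pass. With flagged spots kept it was 1.36, with median scaling of the arrays in place of loess 0.57, and in the authors' processed values 1.59. For C230R105, median scaling gave 0.89 and the authors' processed values 2.12.

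The 5 MRC1 probes were also set against each other by the root mean square difference of their log2 ratios, after each probe was centred on its own mean, where 0 would be identical profiles. Among the 10 pairs, the closest were C038R129 with C054R116 (0.418 over 8 arrays) and C001R135 with C230R105 (0.535 over 7 arrays), the pairs that share contig sequence. The same pairs stood at ranks 1 and 2 when each probe was centred within each day, which largely removes the change between the days that chose the probes (0.417 and 0.548). Rank 3 was C001R135 with C163R118 (0.606, and 0.566 within days), which are of different sequence groups. As C001R135 lacked 1 Day 5 value, its Day 5 mean came from fewer samples than those of the other probes. Within days ranks 2 and 3 are therefore not told apart. The farthest pair was C001R135 with C038R129 (1.08). Likeness did not go with shared sequence throughout: C001R135 was closer to CD209 C248R150 (0.467, and 0.462 within days) than to C230R105, and within days C230R105 was closest to CD209 C157R019 (0.354). These are descriptions of a few probes on the same arrays, with no test.

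**Figure D2:**
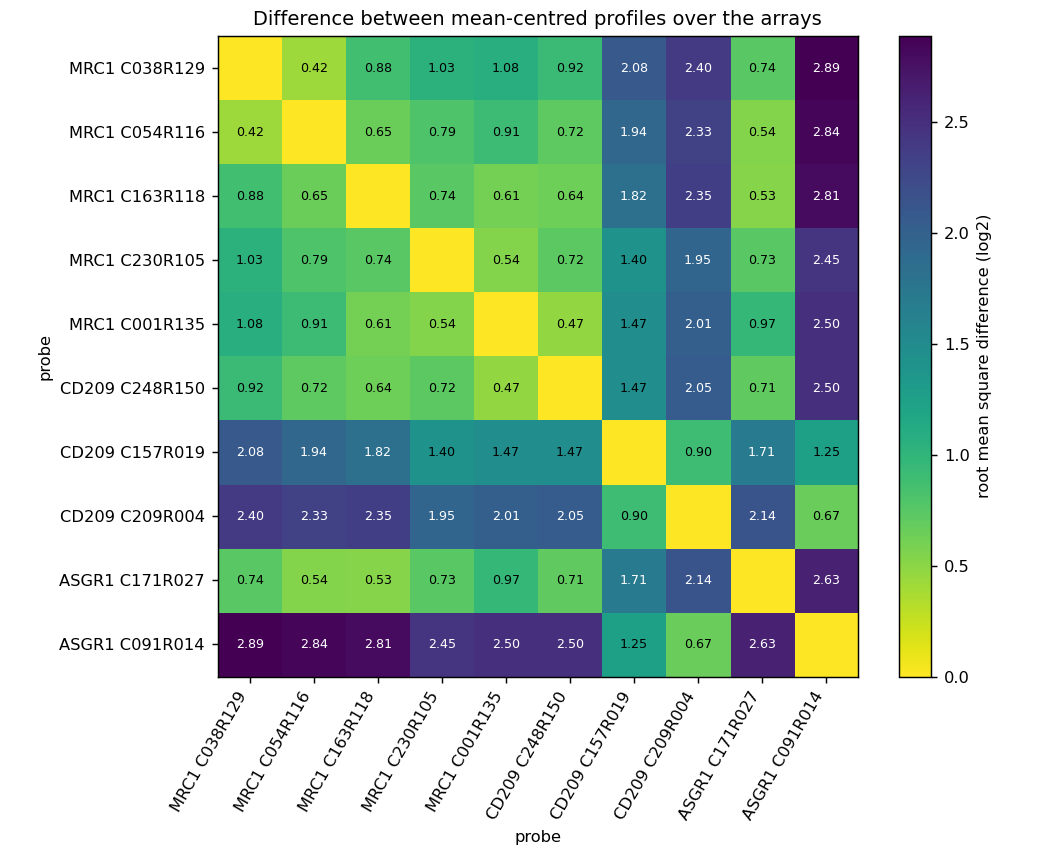
Root mean square difference (log2 scale, colour and number in each cell) between the mean-centred log2 ratios of each pair of the 10 probes, with the probes in the same order on both axes. The MRC1 probes, CD209 C248R150 and ASGR1 C171R027 differ by 1.08 or less from each other, and CD209 C209R004 and ASGR1 C091R014, both lower at Day 5, differ by 0.67.

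CD209 probes differed in direction: C248R150 was higher at Day 5, and C157R019 and C209R004 were lower. None of the 3 passed limma's threshold, although each met the SAM limits by which it was listed. CD209 C248R150 read -0.98, 0.03, -0.61 and -1.07 at Day 1 and 0.01, 0.84, 1.37 and 0.54 at Day 5. It was higher at Day 5 in each fish, by 0.82 to 1.98, but the days overlapped because Fish 2 at Day 1 was just above Fish 1 at Day 5. The fitted change was 1.35 (SE 0.32), or 2.55-fold. Among the other members its profile was closest to that of MRC1 C001R135 (0.467).

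CD209 C157R019 read 0.32, 1.05, -0.11 and 0.75 at Day 1 and -0.64, -1.17, -0.97 and -0.60 at Day 5. The days did not overlap, and Fish 2 went from the highest Day 1 value to the lowest Day 5 value. The fitted change was -1.35 (SE 0.33), a 2.54-fold lower level at Day 5, and the authors' processed values gave -2.13. All its spots were above the negative controls in Cy5.

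CD209 C209R004 read -0.40, 0.36, -0.66 and 2.02 at Day 1 and -0.59, -0.9996, -2.58 and -2.23 at Day 5. Here the days overlapped: the Day 5 value of Fish 1 was higher than the Day 1 value of Fish 3, and Fish 1 differed by only -0.19 between its days whereas Fish 4 differed by -4.25. In Cy5 the Day 5 spot of Fish 3 was under the negative controls (313, limit 473 intensity units). That of Fish 4 was just above them (447, limit 431), so the sizes of both falls rest on dim Day 5 values. The fitted change was -1.93 (SE 0.51). It rested in large part on Fish 4, since without that fish it was -1.16. Within the 2 fish whose samples shared a slide (Fish 1 and Fish 3) it was -1.06, and with slide as a random block -1.15.

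ASGR1 had 1 probe in each direction, and both passed the threshold. ASGR1 C171R027 read -1.79, -0.98, -1.09 and -0.37 at Day 1 and 1.22, 0.25 and 1.01 in the Day 5 HKLs of Fish 2 to Fish 4, the Day 5 spot of Fish 1 being flagged. The days did not overlap, and all its Day 1 and Day 5 spots were bright, at 6258 to 34652 intensity units in Cy5, the flagged one included. The fitted change was 1.64 (SE 0.37), or 3.11-fold, over 3 fish.

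ASGR1 C091R014 had the largest fitted change of all members, although not under every alternative processing. It read -1.30, 0.10, -0.17 and 2.40 at Day 1 and -1.61, -2.56, -3.22 and -3.20 at Day 5. The days did not overlap, but the lowest Day 1 value and the highest Day 5 value, both from Fish 1, were only 0.30 apart, and the differences within fish ran through -0.30, -2.66 and -3.05 to -5.59 in Fish 4. The unnormalised Cy5 signal of Fish 4 went from 17634 to 400 intensity units and that of Fish 1 from 1980 to 787. The median Cy5 signals of these arrays were unlike, at 486 and 367 for Fish 4 and 176 and 594 for Fish 1. The raw signals are therefore not directly comparable. In Cy5, 2 of the 4 Day 5 spots were at or under the negative controls. Those of Fish 1 (787, limit 693) and Fish 2 (545, limit 461) were little above them, so the sizes of the falls rest on dim Day 5 values. The fitted change was -2.90 (SE 0.61), a 7.47-fold lower level at Day 5. Without Fish 4 it was -2.003, within the fish whose samples shared a slide -1.68, and with slide as a random block -1.80. In these settings MRC1 C054R116 changed more, by 2.67, 2.61 and 2.59. In the authors' processed values MRC1 C163R118 had the larger change, 4.04 against -3.40 for ASGR1 C091R014. With spots at or under the negative controls in either channel set missing, the change of ASGR1 C091R014 was -1.42. That setting removed the Day 5 spots of Fish 3 and Fish 4, so it rests on Fish 1 and Fish 2 only.

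C209R004 and C091R014 also stood out by their spread among samples of the same day. Their within-day SDs were 1.09 and 1.22, at percentiles 98.9 and 99.4 of all tested probes, whereas the other members lay between percentiles 18.1 and 78.8. In both, Fish 4 had the highest Day 1 value and the order of the fish at Day 1 began with Fish 4 and then Fish 2. Of the gene lists given below, that of erythroid markers had its highest Day 1 means in the same samples, 1.16 in Fish 4 and 0.64 in Fish 2. Fish 1 was at 0.32 and Fish 3 at 0.06. The list of endocytic and Fc receptors, which was higher at Day 5, also began with Fish 4 (-0.92) and Fish 2 (-1.24) at Day 1. It was followed by Fish 3 (-1.33) and Fish 1 (-1.93), the order of C091R014. These lists were picked by this order from all the lists given below, none of the others beginning with Fish 4 and then Fish 2. An order of 4 fish can be shared by coincidence. The part of either list in these probes was not tested.

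**Figure D3:**
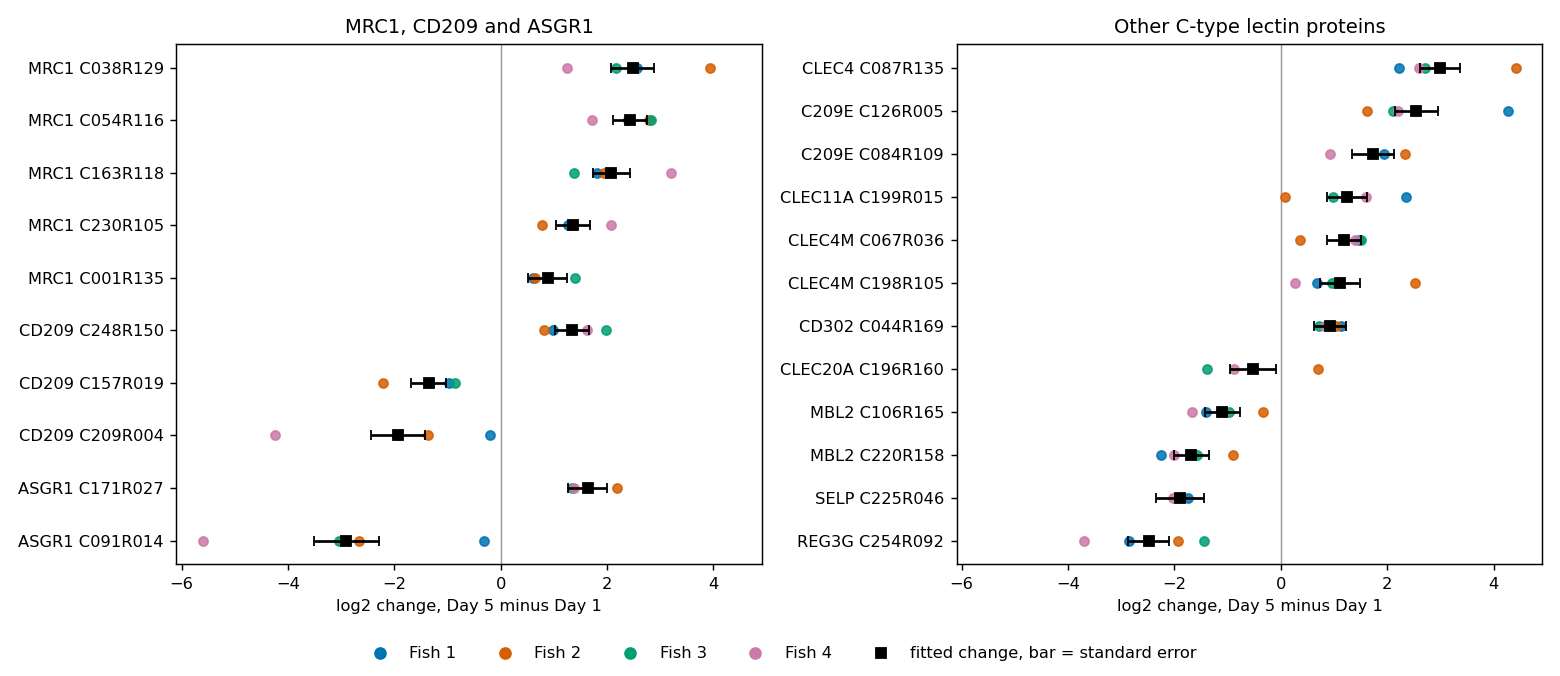
Change in log2 ratio from Day 1 to Day 5 (x axis) of the 10 MRC1, CD209 and ASGR1 probes (left) and of 12 probes of other C-type lectin proteins (right); coloured points are single fish, black squares the fitted change and bars its standard error. The points of MRC1 lie to the right of 0 in every fish, and those of ASGR1 C091R014 reach from -0.30 to -5.59.

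Other proteins with a C-type lectin-like domain gave 12 probes in the study's list, from 9 symbols, and so were also listed for differing between the days. Of these, 7 were higher and 5 lower at Day 5, with a median change of 1.02 where the median over all tested probes was -0.004 (0.58 over those in the study's list). At the threshold, 3 had risen and 2 had fallen. Of the tested probes in the study's list 17.9% passed as higher and 16.2% as lower, against 1.09% and 0.936% of all tested probes. CLEC4 C087R135 rose by 2.99 (SE 0.38), from between -3.42 and -2.31 at Day 1 to between -0.68 and 1.00 at Day 5. Both probes of C209E, a symbol of the mouse protein CD209 antigen-like protein E, rose, C126R005 by 2.55 (SE 0.41) and C084R109 by 1.73 (SE 0.39), and both belong to the salmon RefSeq gene c209e. They thus had the direction of CD209 C248R150 and not that of the other CD209 probes. Each C209E probe had only 1 of 4 Day 1 spots above the negative controls in Cy5, so the sizes of its change rest on dim Day 1 values. Of the probes that fell, REG3G C254R092, a secreted lectin known from the mammalian gut for binding bacterial cell walls, changed by -2.49 (SE 0.38). MBL2, the mannose-binding lectin of plasma that starts the lectin pathway of complement, was lower on both its probes. All 4 Day 5 spots of each were at or under the negative controls. At Day 1, 3 of 4 spots of C220R158 and 2 of 4 of C106R165 were above them. Against a floor computed as for MRC1 C163R118, C220R158, which passed the threshold, was 1.78-fold lower. C106R165, which did not pass, was 1.70-fold lower, and neither value is a firm bound. The remaining 6 probes that did not pass were CLEC11A at 1.25, CLEC4M at 1.18 and 1.11, CD302 at 0.93, CLEC20A at -0.52 and the selectin SELP at -1.89.

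Genes that act beside these receptors were counted in the same way, again from probes the study had listed, of which 53% had a change above 0 and 17.9% passed as higher. Lectins of other families gave 9 probes, all higher at Day 5, of which 5 passed (median 1.87). SIGLEC16, a receptor for sialic acid, rose by 2.25 (SE 0.35), and galectins, which bind galactose, rose on the LGALS9 probes C086R032 (1.93, SE 0.45) and C158R014 (1.89, SE 0.32) and on LGALS8 C095R124 (1.87, SE 0.36). Scavenger, Fc and other endocytic receptors gave 10 probes, all higher, of which 8 passed (median 1.72). SCARB2, a lysosomal membrane protein, rose on both its probes by 3.07 (SE 0.34) and 2.93 (SE 0.46), and the Fc receptor FCGR3 by 1.94 (SE 0.39). Enzymes that break down sugar chains, most of them lysosomal, gave 14 probes, all higher (median 1.17). Of these 3 passed, a share near that of the whole study's list, namely FUCA2 C085R017 at 2.41 (SE 0.35), IDUA at 1.42 (SE 0.31) and AGA C168R150 at 1.38 (SE 0.30). At Day 1, only 1 of 4 Cy5 spots was above the negative controls for FUCA2 C085R017 and for the SCARB2 probe that rose by 2.93, and 2 of 4 for IDUA.

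MRC1 is used in mammals as a marker of alternatively activated (M2) macrophages, and 9 probes of 6 other genes used in that way went in both directions. At the threshold 3 had risen and 2 had fallen, with a median of -1.02. These probes too were listed by the study for differing between the days. Of all tested probes in that list 17.9% passed as higher and 16.2% as lower, against 1.09% and 0.936% of all tested probes. The transglutaminase TGM2 rose by 2.34 (SE 0.49) and SOCS1, an inhibitor of cytokine signalling, by 1.54 (SE 0.35). The coagulation factor F13A rose on C160R005 by 1.74 (SE 0.35) and fell on 2 other probes, C182R121 by 1.52 (SE 0.33) and C073R121 by 1.40 (SE 0.30). Neither probe of arginase ARG1, which turns arginine into ornithine, passed; both were lower at Day 5, at -1.32 and -1.44. TGFB1 at -1.02 and IL4RA at 0.96 did not pass either.

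The lists of cell type markers are given beside the members, some of them apart between the days and others not. Their probes too were listed by the study for differing between the days. Of all tested probes in that list 17.9% passed as higher and 16.2% as lower, against 1.09% and 0.936% of all tested probes. All 16 tested macrophage probes were higher at Day 5 and 10 passed. The growth factor receptor CSF1R rose by 3.12 (SE 0.39) on C155R076 and by 2.18 (SE 0.37) on C174R133. Its probes C058R046 (1.31) and C157R134 (1.23) did not pass, the latter with no Day 1 spot above the negative controls in Cy5. The mean of the list ran from between -1.29 and -0.85 at Day 1 to between 0.28 and 0.84 at Day 5. Of 47 B cell probes 46 were lower and 25 fell past the threshold, 1 having risen (FCRL5 C203R104). Other probes of FCRL5 were lower, C188R129 at -2.09, which passed, and C241R120 at -1.61, which did not. The B cell probes were of 6 symbols, most of them of IGHM and IGHA2, and their mean went from between 0.09 and 0.63 to between -1.44 and -0.60. CD79A, a part of the B cell receptor, fell by 2.67 on the log2 scale (SE 0.32), and 8 of the 47 were at or under the negative controls at Day 5. Of 21 erythroid probes 20 were lower and 16 fell past the threshold, among them the anion exchanger SLC4A1 (-3.26, SE 0.40) and the haemoglobin HBA1 (-3.03, SE 0.34), and 8 were at or under the negative controls at Day 5. Their mean lay between 0.06 and 1.16 at Day 1 and between -1.82 and -1.09 at Day 5. All 10 T and NK cell probes were lower, of which 1 (CD5) passed, and all 3 thrombocyte probes were lower with none passing. Their means lay between -0.08 and 1.17 and between -0.28 and 0.94 at Day 1, and between -1.39 and -0.30 and between -1.19 and -0.43 at Day 5. For the cells in which CD209 and ASGR1 are best known in mammals, the lists were short. Both dendritic cell probes were higher, of which ZBTB46 passed (2.27, SE 0.41), with means between -1.61 and -0.81 at Day 1 and between -0.70 and 1.26 at Day 5. Of 9 probes of proteins made by the liver, most of them secreted into plasma, 5 were higher and 4 lower at Day 5. At the threshold, 3 of these had risen and 2 had fallen. At Day 5, 4 of the 9 were at or under the negative controls, and the means of the list overlapped between the days (-0.84 to -0.34 against -0.64 to -0.32). Of the 6 neutrophil probes 3 were higher and 3 lower at Day 5, and 2 of each passed. Both that passed as higher were of FPR1, and both that passed as lower were of the chemokine receptor CXCR1. The means of this list overlapped too (-0.65 to -0.41 against -0.80 to -0.12). The part of any of these cell types in the MRC1, CD209 and ASGR1 values was not tested.

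**Figure D4:**
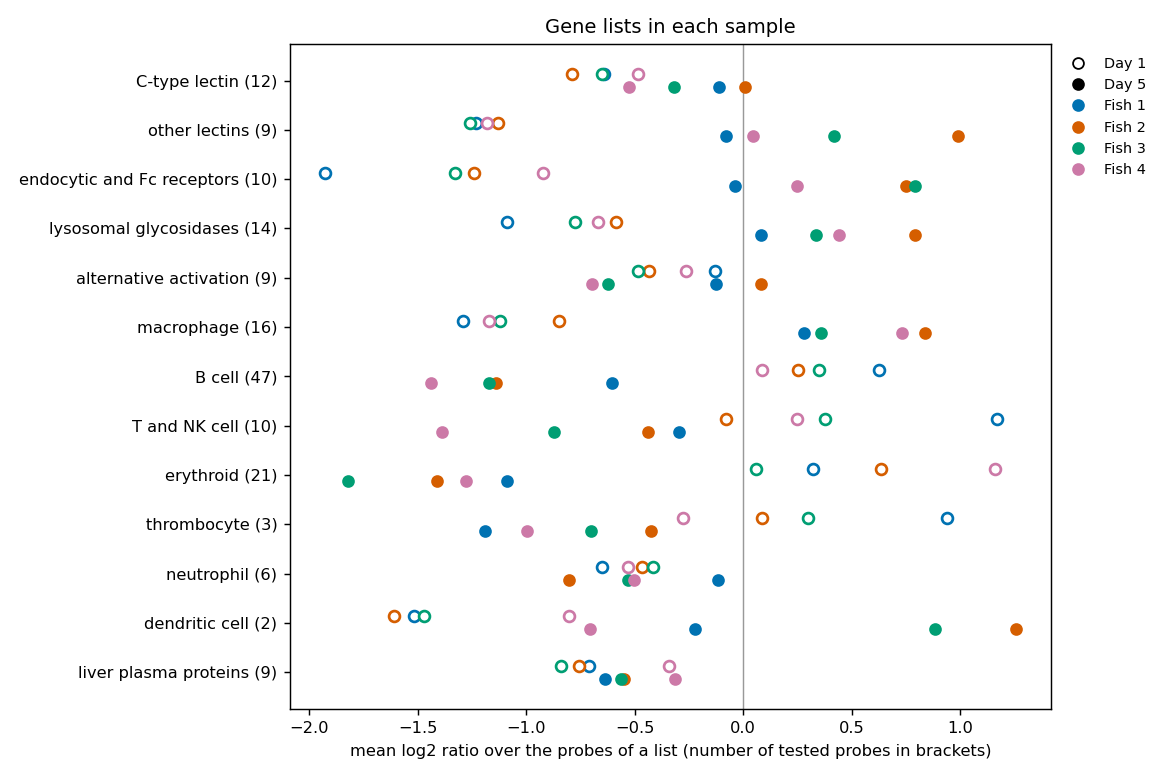
Mean log2 ratio over the tested probes of each gene list (x axis) in each sample, with the lists on the y axis, open circles for Day 1, filled circles for Day 5 and 1 colour per fish. The macrophage list lies between -1.29 and -0.85 at Day 1 and between 0.28 and 0.84 at Day 5, the erythroid list between 0.06 and 1.16 and then between -1.82 and -1.09.

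Among 1680 probes with other gene names in the study's list and no missing value, those with the profile most like each member over the arrays were sought by the same root mean square difference. For the mean of the 4 MRC1 probes without a missing value they were TRAM2 C078R048 (0.181) and FPR1 C044R145 (0.185), where the median over the candidates was 0.953. FPR1 is a receptor for formylated bacterial peptides. For CD209 they were ARHGEF5 (0.267) and VANGL2 (0.270) with C248R150, EGLN1 (0.232) and RRP8 (0.233) with C157R019, and RHD (0.447) and RNF151 (0.482) with C209R004. RHD is an antigen of the red cell membrane in humans. For ASGR1 they were STLA (0.187) and CYB5 (0.209) with C171R027 over 7 arrays, and the actin-capping protein TMOD4 (0.606) and the ribosomal protein RL13 (0.617) with C091R014. The median over the candidates was larger for C209R004 (1.62) and C091R014 (2.08), the probes that varied most, so these differences are not comparable between members.

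The arrays gave limited room for these values. Median Cy5 signals ran from 176 to 594 intensity units, 40.4% to 51.3% of probes were above the negative controls, and 4.44% to 11.9% of spots carried a quality flag. The Day 5 array of Fish 1 had the highest median Cy5 signal (594) and the lowest median Cy3 signal (90.8). On the other arrays the median Cy3 signal lay between 206 and 275. The arrays lay on 3 slides, and for Fish 2 and Fish 4 the 2 days were on different slides. Their Day 5 samples shared a slide that held no Day 1 sample, so day and slide cannot be told apart within these fish. Within the fish whose days shared a slide, the mean change of the MRC1 probes was 1.78.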

How the data were processed

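Cy5 and Cy3 intensity values, spot backgrounds and quality flags of 8 arrays were deposited by the authors as ImaGene output, with no background correction or normalization. The authors also deposited processed log2 ratios of 18108 probes (background-corrected, loess-normalized, filtered, imputed), used only as an alternative and for SAM. Here limma 3.58.1 (in R 4.3.3) was applied to the intensities: normexp (offset 50) on signal mean and background median, then loess with weight 0 for control and filtered spots. Flagged spots, and spots not exceeding local background by 2 SD in both channels, were set missing, and probes missing on more than 2 arrays were left out. Nothing was imputed. Days were compared with lmFit and eBayes, fish being a block, with Benjamini-Hochberg adjustment over 38695 probes and a threshold of 0.05; 5139 probes had an unadjusted p under 0.05. Random slide blocks used statmod 1.5.0, with a consensus correlation within slides of 0.92. SAM used all 16 sign flips. The procedure was tested on simulated data.

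The pairing comes from the labels, since both samples of a number are from 1 fish; deviations from the day means correlated at -0.05, -0.08, 0.08 and 0.03 in Fish 1 to Fish 4. Symbols were read from the study's supplementary list, whose fold changes and q-values were not used. Named probes were all members, all probes of the C-type lectin list and the 2 probes most like each member. Of each other list up to 4 examples were named, those with the largest change among the probes past the threshold. F13A C073R121, ARG1, TGFB1, IL4RA, CSF1R C058R046 and C157R134, and FCRL5 C188R129 and C241R120 fall outside that rule. They were named after their values were seen. Members and lists were chosen with earlier results of these data known, and the negative control limit was set after seeing the data. RefSeq (assembly Ssal_v3.1) served for gene names only. Fish 5 was not analysed here. The study reports that 1 animal was dropped for a labelling error, and that Fish 5 was eliminated because its samples did not cluster by day. Keeping the other fish thus favours a separation of the days. The number of arrays limits the precision, with at most 4 differences within fish behind a change.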

Additional observations from a re-analysis of the deposited data

Results flagged for a closer look

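In 41 groups of 4 samples of a day (each MRC1, CD209, ASGR1 and other C-type lectin probe with 4 values, and the mean of the MRC1 probes without a missing value), 2 held a sample far from the other 3. Chance flags about 1 in 20 such groups. C209E C084R109 was at -0.70 in the Day 5 HKLs of Fish 4, while the other Day 5 samples lay between 0.07 and 0.18 (a gap of 0.876 of the range). MBL2 C220R158 was at 1.09 in the Day 1 HKLs of Fish 1, the others lying between 0.08 and 0.17 (a gap of 0.905 of the range). No group of an MRC1, CD209 or ASGR1 probe held such a sample.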

How the results depend on the processing

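No member changed direction in an alternative limma fit that measured it, nor within slides, which the way they were chosen favours; 8 of the 10 were measured with spots at or under the negative controls removed, and 8 without probes that had a missing value. The count of called probes (784, 422 higher and 362 lower) was 0 with plain background subtraction and 0 without background correction (4217 and 4393 probes at an unadjusted p under 0.05 in limma), 479 with flagged spots kept (262 higher, 217 lower), 2121 by SAM (1117 higher, 1004 lower) and 2676 with slide as a random block (1328 higher, 1348 lower). Leaving out each fish gave 342 to 750 (216 to 394 higher, 125 to 356 lower), lowest without Fish 4 (342) and Fish 3 (365). Median scaling gave 567 lower calls, with 37.3% of calls higher where loess gave 53.8%; without Fish 4 the share was 63.5%. The count of members past the threshold (6), added after the data were seen, was 0 with either background alternative and 2 to 6 with a fish left out. The mean MRC1 change (1.85) was 1.43 with median scaling, 2.08 from signal medians, 1.32 with spots at or under the negative controls removed, where 2 MRC1 probes dropped out, 2.09 without probes that had a missing value, 2.71 in the authors' processed values, and 1.80 to 1.90 with a fish left out. In the C-type lectin list, 3 higher and 2 lower calls became 0 and 0 with either background alternative, 7 and 5 by SAM (as listed), and 6 and 4 with slide as a random block; leaving out a fish gave 2 higher and 1 to 2 lower. Except where stated, the cause was not tested. Without the pairing (no replicate block), 918 probes were called and the mean MRC1 change was 1.92, and no direction of a member differed.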
